A study of Mus musculus with 6 samples.

Results

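A set of 10 genes that mark microglia in their homeostatic state were followed in cerebellar RNA sequencing libraries of wild-type (WT) and KIKO mice. They were taken by name from the 31053 genes of the count table: Cx3cr1, P2ry12, Tmem119, Csf1r, Sall1, Siglech, P2ry13, Gpr34, Selplg and Olfml3. All 10 had a row, and all 10 were among the 10889 genes with enough counts to be tested. KIKO (knock-in knock-out) mice are a model of Friedreich's ataxia. The controls were WT littermates of the C57BL/6 background. The sample labels give cerebellum as the tissue and the genotype, without age, sex or cell isolation. The methods that accompany the data describe CD45+/CD11b+ cells taken from the cerebellum with magnetic beads, at 6 months of age. Each library is therefore read here as a population meant to be enriched for microglia and macrophages. Transcripts of other cell types were present in every library, as given below. Counts were given for 2 WT libraries (WT 1 and WT 2) and 3 KIKO libraries (KIKO 1, KIKO 2 and KIKO 3), and a sample labelled WT 3 was not analysed here. Nothing in the labels says whether each library came from 1 mouse or from a pool, so p-values measure only the spread between these libraries.

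Microglia are the resident macrophages of the brain. In the undisturbed brain they survey their surroundings with moving processes, read signals from neurons through surface receptors, and depend on signalling through the receptor encoded by Csf1r for survival. Loss of transcripts of this kind is a common description of microglia that have left the homeostatic state, and several of them also fall when the cells are removed from the brain.

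Totals ran from 1013107 to 1351339 counts per library, and 3 counts corresponded to between 2.28 and 3.04 CPM, which are counts relative to the normalized size of the library. The members held between 28 and 3451 counts in a library, so depth limited the less abundant ones most. KIKO 2 stood apart from the rest: across the genes tested, its log2 CPM correlated with those of the other libraries at 0.672 to 0.747, against 0.884 to 0.931 among the other 4, and the common biological coefficient of variation was 0.4684 with it and 0.2381 without it. It also had the fewest genes with a count, 12724 against 13729 to 14737 in the other libraries, although its total of 1241997 counts was not the lowest. The genotype difference of each member is therefore given with and without KIKO 2.

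The purinergic receptor genes P2ry12 and P2ry13 are neighbours. P2ry13 (ENSMUSG00000036362) lies at chr3:59207892-59210882 and P2ry12 (ENSMUSG00000036353) at chr3:59216272-59262871 (GRCm38, minus strand), 5389 bases apart. The gene Med12l runs across this gap on the opposite strand and overlaps exons of P2ry12. The 250 bases before a RefSeq start of both genes are shown because of this shared neighbourhood, beside those of Cx3cr1, whose levels moved less. They come from RefSeq (GRCm38.p6) and are written 5′ to 3′ on the minus strand, P2ry13 from chr3:59210883-59211132, P2ry12 from chr3:59262986-59263235 and Cx3cr1 from chr9:120068297-120068546. The starts are those of RefSeq transcripts, which for P2ry12 lies outside the gene as GENCODE gives it and for Cx3cr1 inside it, so the Cx3cr1 stretch lies within the GENCODE gene. Capitals mark GAGGAA, 1 form of the letters in sites bound by PU.1, a transcription factor of macrophages. Forms without these 6 letters were not searched, so an unmarked stretch can still hold such a form.
P2ry13: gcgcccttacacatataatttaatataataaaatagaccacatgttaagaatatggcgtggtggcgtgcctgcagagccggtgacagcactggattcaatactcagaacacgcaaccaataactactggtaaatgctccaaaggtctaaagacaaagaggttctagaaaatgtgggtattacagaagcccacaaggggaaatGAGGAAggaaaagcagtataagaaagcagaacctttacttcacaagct
P2ry12: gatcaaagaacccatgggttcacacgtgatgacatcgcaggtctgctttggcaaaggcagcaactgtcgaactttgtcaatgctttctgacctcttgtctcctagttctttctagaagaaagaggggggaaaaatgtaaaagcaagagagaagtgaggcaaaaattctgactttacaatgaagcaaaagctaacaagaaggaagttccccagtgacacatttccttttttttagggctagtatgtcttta
Cx3cr1: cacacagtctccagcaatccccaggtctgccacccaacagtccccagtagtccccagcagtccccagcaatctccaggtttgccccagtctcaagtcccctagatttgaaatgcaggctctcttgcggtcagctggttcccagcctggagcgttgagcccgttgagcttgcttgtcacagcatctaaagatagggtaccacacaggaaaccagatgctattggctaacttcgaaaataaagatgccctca
The 6 letters stood 48 bases before the start of P2ry13. They were searched on both strands and were found in 1 of the 8 promoters of the 6 members that matched the table (12.5%), against 7639 of all 32851 promoters of the same length (23.3%). The longer GAGGAAGT, which contains the shorter motif, was in 0 of these 8 and in 2.44% of all promoters. Csf1r, Gpr34, Selplg and Tmem119 were not matched. These are letter matches in a short window, not binding sites.

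No member differed between KIKO and WT past either threshold. The thresholds were an absolute log2 fold change above 0.75 with an unadjusted p under 0.05, and an adjusted p under 0.05 (edgeR, quasi-likelihood test, adjusted by Benjamini-Hochberg over every gene tested). At the first, 0 of 10 members passed in either direction, against 0.487% of all genes tested that were lower in KIKO and 0.716% that were higher. At an adjusted p under 0.05, 0 of 10 members and 0.00% of all genes passed, while 131 genes of all were past the first threshold. The adjusted p was 1.0 for every member with all 5 libraries, and the unadjusted p ran from 0.34 to 1.0. Standard errors of the members' log2 fold changes lay between 0.35 and 0.74, so an increase of up to 1.63 to 1.95 on the log2 scale lay within 2 standard errors for Gpr34, Csf1r and P2ry12. Decreases also lay within 2 standard errors, down to -1.15 for Sall1, -1.0 for P2ry12 and -0.96 for Selplg. An exact permutation test over the libraries, two-sided, gave p values from 0.4 to 1.0 for the members, and with 2 libraries against 3 it cannot go below 0.1. In bulk RNA, fewer cells of a type and less RNA per cell cannot be told apart.

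**Figure D1:**
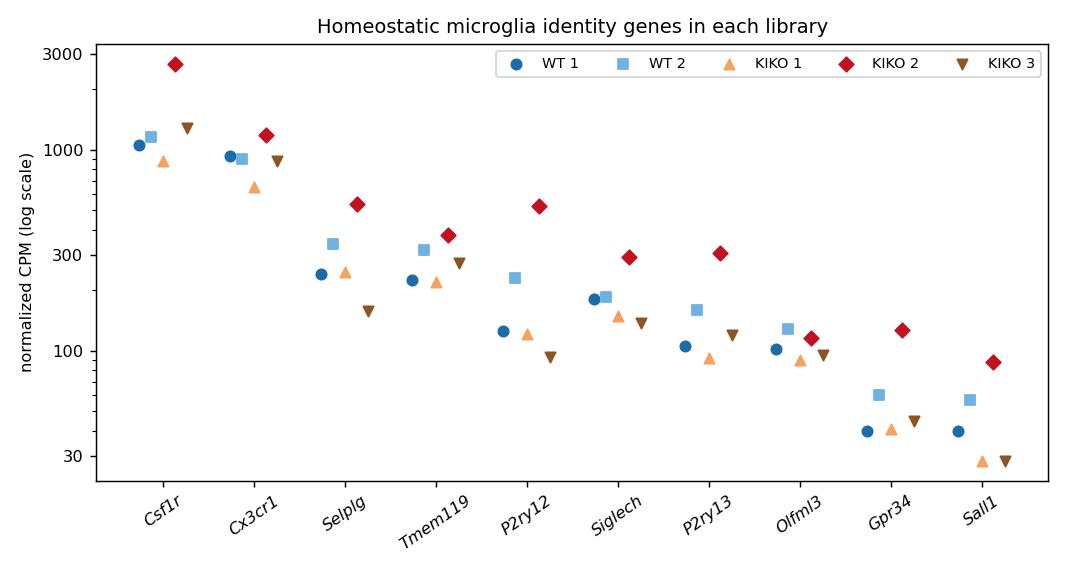
Level of each identity gene in each library, as normalized CPM on a log scale, with 1 point per library and genes ordered by mean level. KIKO 2 is the highest point for every gene except Olfml3, for which WT 2 is highest.

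A group of 4 members encode G protein-coupled receptors that sense nucleotides, lipids or a chemokine. P2ry12 encodes the ADP receptor through which microglial processes are drawn to sites of damage, and it varied most. It stood at 125.5 and 229.8 CPM in WT and at 121.4, 524.7 and 93.36 CPM in KIKO. KIKO 2 was the highest library and KIKO 3 the lowest, 5.62-fold apart, and the groups overlapped. The log2 fold change of KIKO over WT was 0.47 ± 0.74 (SE, 2 WT and 3 KIKO libraries) with all libraries and -0.73 ± 0.30 without KIKO 2. This second value had an unadjusted p of 0.0198 and an adjusted p of 0.532 in edgeR's quasi-likelihood test, and its size lay just under 0.75. Reads of P2ry12 and Med12l could be confused only if counting ignored strand, which is not stated. Med12l had 51 and 60 counts in WT and 90, 76 and 73 in KIKO, an order of libraries unlike that of P2ry12.

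P2ry13, a second ADP receptor that acts in microglial ramification, followed a similar order. Its level was 105.6 and 158.5 CPM in WT and 91.48, 306.0 and 119.7 CPM in KIKO. KIKO 2 was again highest, and the remaining KIKO libraries lay on either side of WT 1. The log2 fold change was 0.38 ± 0.56 with all libraries and -0.34 ± 0.29 without KIKO 2. Gpr34 (ENSMUSG00000040229, chrX:13632089-13640858, plus strand) encodes a receptor for lysophosphatidylserine. It measured 39.84 and 59.92 CPM in WT and 41.01, 126.0 and 44.65 CPM in KIKO. All libraries but KIKO 2 lay within 1.5-fold of each other, with log2 fold changes of 0.50 ± 0.58 and, without KIKO 2, -0.24 ± 0.37.

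Cx3cr1 (ENSMUSG00000052336, chr9:119901616-120069879, minus strand) encodes the fractalkine receptor, through which neurons signal to microglia. It was among the steadiest members, with 925.4 and 894.2 CPM in WT and 651.4, 1184 and 875.7 CPM in KIKO. The mean was 909.8 ± 22.03 CPM in WT (SD, n = 2) and 903.7 ± 267.3 CPM in KIKO (SD, n = 3), a log2 fold change of -0.01 ± 0.42. Without KIKO 2, both KIKO libraries lay below both WT libraries, and the log2 fold change was -0.26 ± 0.26, with an unadjusted p of 0.324 in the same quasi-likelihood test.

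Csf1r, on chromosome 18 (ENSMUSG00000024621), encodes the receptor tyrosine kinase for CSF1 and IL-34 and was the most abundant member. Its level was 1049 and 1148 CPM in WT and 877.0, 2667 and 1277 CPM in KIKO. KIKO 2 exceeded the median of the other libraries 2.43-fold, KIKO 1 lay below both WT libraries and KIKO 3 above both. The log2 fold change was 0.55 ± 0.54, the largest among the members with all libraries, and was -0.04 ± 0.27 without KIKO 2. Hmgxb3 overlaps its exons on the other strand and had at most 42 counts in a library.

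The next 3 members encode other proteins of the cell surface. Tmem119 (ENSMUSG00000054675, chr5:113793729-113800516) encodes a transmembrane protein used to tell microglia from other macrophages. It measured 225.1 and 317.8 CPM in WT and 219.2, 374.0 and 273.0 CPM in KIKO, with KIKO 3 between the WT libraries. Selplg (ENSMUSG00000048163, chr5:113818536-113832644), encoding the selectin ligand PSGL-1, lies 18019 bases from Tmem119 on the same minus strand with no gene between them. It measured 241.1 and 338.3 CPM in WT and 245.3, 537.8 and 158.3 CPM in KIKO. These neighbours parted in KIKO 3, the lowest library for Selplg and a middle one for Tmem119. The log2 fold change was 0.09 ± 0.40 for Tmem119 and 0.12 ± 0.54 for Selplg, and without KIKO 2 it was -0.15 ± 0.26 and -0.53 ± 0.27.

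Siglech (ENSMUSG00000051504, chr7:55768178-55778925, plus strand) encodes a sialic acid-binding lectin that separates microglia from most brain macrophages. Its WT libraries nearly coincided at 181.3 and 185.8 CPM, and KIKO stood at 148.3, 292.9 and 138.0 CPM. KIKO 1 and KIKO 3 lay below both WT libraries and KIKO 2 above them, so that the mean log2 fold change of 0.07 ± 0.43 became -0.36 ± 0.26 without KIKO 2.

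Sall1 (ENSMUSG00000031665, chr8:89027235-89044162, minus strand) encodes a transcriptional regulator that holds microglial identity, and it was the least abundant member. It measured 39.84 and 56.88 CPM in WT and 28.39, 88.09 and 28.41 CPM in KIKO. The group means were equal, 48.36 ± 12.05 CPM in WT (SD, n = 2) and 48.30 ± 34.46 CPM in KIKO (SD, n = 3), although 2 KIKO libraries lay below both WT libraries and the third above them. Without KIKO 2 the log2 fold change was -0.78 ± 0.40, with an unadjusted p of 0.0584 and an adjusted p of 0.635 in edgeR's quasi-likelihood test. Olfml3 (ENSMUSG00000027848, chr3:103722222-103738001, minus strand) encodes a secreted olfactomedin-like protein and was the exception among the members. It measured 101.6 and 128.2 CPM in WT and 89.9, 115.9 and 95.39 CPM in KIKO, a span of only 1.43-fold, with log2 fold changes of -0.20 ± 0.35 and, without KIKO 2, -0.32 ± 0.29.

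KIKO 2 was the highest library for 9 of the 10 members. It was the highest library for 33.9% of all genes tested. Its level over the median of the other 4 libraries was 4.25-fold for P2ry12, 2.94-fold for Gpr34, 2.72-fold for P2ry13, 2.58-fold for Sall1, 2.43-fold for Csf1r and 2.21-fold for Selplg. It was 1.78-fold for Siglech, 1.5-fold for Tmem119, 1.34-fold for Cx3cr1 and 1.18-fold for Olfml3. A ratio of at least 2 was thus reached by 6 of 10 members and by 18.2% of all genes tested. For 25.6% of all genes tested the ratio was at most 0.5. Within WT, WT 2 was above WT 1 for 9 of 10 members, Cx3cr1 being the exception, against 50.3% of all genes.

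With all 5 libraries, 2 members had a negative log2 fold change, Sall1 rounded to 0.00, and the median over the members was 0.10, beside 0.02 over all genes tested. The groups overlapped for each member, whereas they did not overlap for 16.7% of all genes. Without KIKO 2, the log2 fold change was negative for all 10, with a median of -0.33 beside -0.01 over all genes. Libraries did not overlap, with both KIKO libraries lower, for 5 members (Cx3cr1, P2ry12, Sall1, Siglech and Olfml3), against 19.2% of all genes. The number of members past the first threshold stayed at 0, against 3.51% of all genes that were lower in KIKO, and 0 members passed at an adjusted p under 0.05, against 0.0482% of all genes. At an unadjusted p under 0.05 alone 1 member, P2ry12, was lower, against 4.47% of all genes. The direction of the members thus depended on 1 library.

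**Figure D2:**
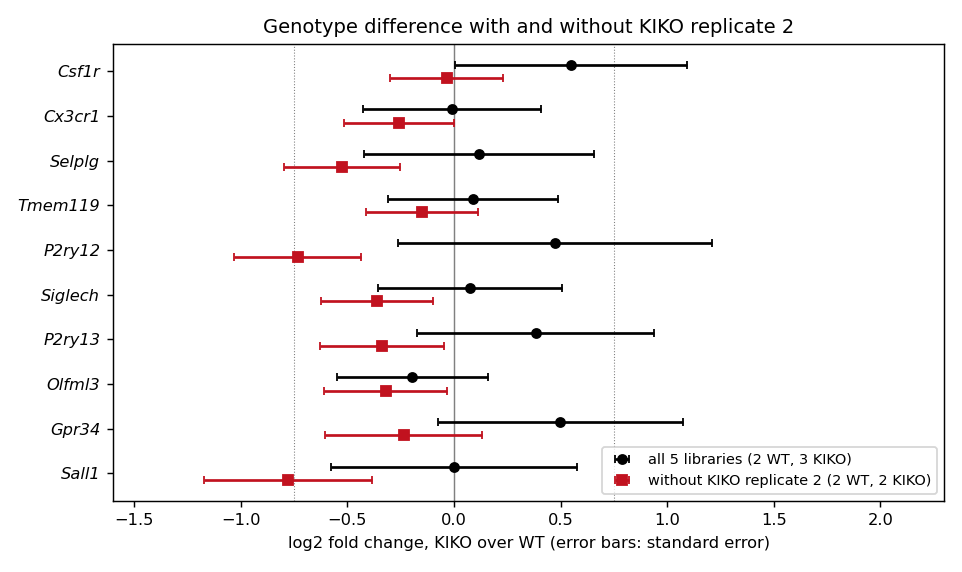
Log2 fold change of KIKO over WT for each identity gene with its standard error, with all 5 libraries (black circles) and without KIKO replicate 2 (red squares); dotted lines mark 0.75 in either direction. Estimates without KIKO 2 lie to the left of those with it for all 10 genes, and the standard errors shrink from 0.35 to 0.74 down to 0.26 to 0.40.

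The summed level of the 10 members was 3034 and 3517 CPM in WT and 2513, 6216 and 3103 CPM in KIKO, which was 0.249% to 0.648% of a library's counts. KIKO 2 was the highest and KIKO 1 the lowest. To set the members beside other transcripts of the same cells, they were expressed as a percentage of 12 genes that microglia share with other macrophages (among them C1qa, Ctss and Tyrobp, and also Itgam and Ptprc, which encode the CD11b and CD45 used for the isolation). On this scale the sum was 58.1% and 50.7% in WT and 57.0%, 65.2% and 64.9% in KIKO, and the libraries differed far less than in CPM. Of the 12 shared genes, 5 were highest in KIKO 2, while Laptm5, Cyba and Ly86 were lowest there. Ctss alone held 4451 of the 9540 CPM of these 12 genes in KIKO 2, so it weighed heavily in the percentages. In percentage points Csf1r spanned the widest range on this scale, with 20.1% and 16.6% in WT against 19.9%, 28.0% and 26.7% in KIKO. Without Csf1r, the other 9 came to 38.0% and 34.2% in WT and 37.1%, 37.2% and 38.2% in KIKO. P2ry12 still varied, at 2.40% and 3.32% in WT and 2.75%, 5.50% and 1.95% in KIKO, a narrower range than its 5.62-fold range in CPM.

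When the libraries were scaled by these 12 genes instead, the median log2 fold change of the members was 0.08 with all libraries, where the median of all genes was 0.12. With this scaling and without KIKO 2, a setting chosen after the data were seen, it was 0.09, where the median of all genes was 0.38. These medians are descriptions, and their differences were not tested. Relative to those genes, P2ry12 (-0.28), Sall1 (-0.36) and Selplg (-0.10) still had negative log2 fold changes without KIKO 2, and none of the members passed a threshold.

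**Figure D3:**
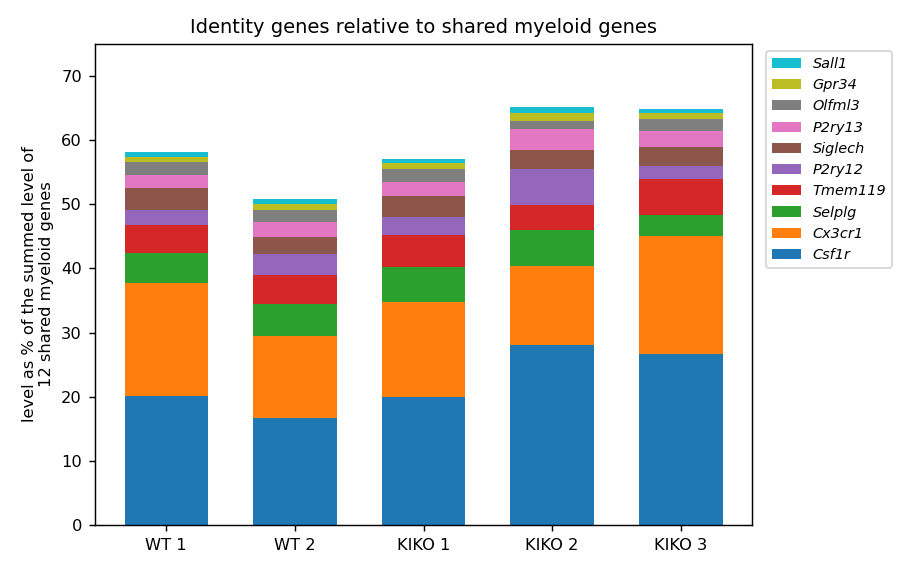
Stacked level of the 10 identity genes in each library as a percentage of the summed level of 12 genes shared by microglia and other macrophages. The stacks reach 50.7% to 65.2%, and the Csf1r segment is tallest in KIKO 2 (28.0%) and KIKO 3 (26.7%).

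Levels were compared between members per kilobase of exon. The order of mean levels was Csf1r (243 CPM per kilobase), Cx3cr1 (201), Tmem119 (122), P2ry12 (86.0), Selplg (71.2), P2ry13 (61.8), Siglech (55.9), Gpr34 (29.8), Olfml3 (17.2) and Sall1 (9.18 CPM per kilobase). The ranges over the 5 libraries overlapped for each pair of neighbours in this order. Library by library, Cx3cr1 was nevertheless above Tmem119, Siglech above Gpr34, Gpr34 above Olfml3 and Olfml3 above Sall1 in all 5, while P2ry12 was above Selplg in only 2. The labels name a stranded whole-transcript kit and the methods a digital mRNA service, and if reads came from transcript ends the division by length does not apply. In CPM without that division only 3 genes kept their place, and Csf1r and Cx3cr1 were the leading genes on both scales.

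Genes of related function were taken from lists written for this tissue. Of 27 other genes enriched in homeostatic microglia, 25 were tested, and 16 had positive and 9 negative log2 fold changes with a median of 0.13. Only Abi3, which encodes an adaptor of the actin-regulating WAVE complex, passed the first threshold. Its level was 73.71 and 84.95 CPM in WT and 41.8, 42.5 and 26.38 CPM in KIKO, so that the groups did not overlap and KIKO 2 was not set apart. The log2 fold change was -1.10 ± 0.40 (unadjusted p 0.0253, adjusted p 1.0, edgeR) and -1.21 ± 0.35 without KIKO 2. Sparc, a secreted matrix-binding protein gene, and Bin1, which encodes a membrane-shaping adaptor, were not called, with log2 fold changes of 0.10 ± 0.40 and 0.23 ± 0.40 (-0.07 and 0.08 without KIKO 2). Without KIKO 2, 17 of the 25 were negative, with a median of -0.20, and 5 passed the first threshold, all lower in KIKO, among them Abi3, Cd33, Pros1 and Cmtm6. Of all 10373 genes tested without KIKO 2, 5284 were negative, the median was -0.01 and 3.51% passed as lower. These shares also stand beside the counts of the lists that follow.

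Among ligands of the member receptors and the enzymes that handle those ligands, 8 of 11 genes were tested, 3 were positive and 5 negative, and 0 passed. Csf1, a ligand of the Csf1r product, measured 157.4 and 175.2 CPM in WT and 88.33, 199.4 and 52.77 CPM in KIKO. Its log2 fold change was -0.55 ± 0.54 with all libraries and -1.23 ± 0.30 without KIKO 2, where it passed the first threshold (unadjusted p 0.000283, adjusted p 0.209, edgeR). Abhd12 and Abhd16a, whose products remove and make the lysophosphatidylserine that Gpr34 responds to, had log2 fold changes of -0.08 ± 0.41 and -0.34 ± 0.44. Without KIKO 2 these were -0.40 ± 0.30 for Abhd12 and -0.72 ± 0.32 for Abhd16a, neither past the first threshold. Entpd1, which encodes an enzyme that breaks down ATP and ADP, measured 50.8 and 75.85 CPM in WT and 70.19, 214.0 and 59.87 CPM in KIKO, again highest in KIKO 2. Il34, the other ligand of the Csf1r product, was near the depth limit at 14.94 and 9.86 CPM in WT and 3.155, 4.636 and 7.103 CPM in KIKO, and Cx3cl1, which encodes fractalkine, ran from 6.309 to 35.55 CPM. Their differences did not pass, with log2 fold changes of -1.31 ± 0.83 for Il34 and 0.01 ± 0.91 for Cx3cl1, and of -1.29 ± 0.81 and -1.16 ± 0.71 without KIKO 2.

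Of 10 signalling partners of the receptors, 7 were positive and 3 negative, with a median of 0.27, and 0 passed. Gnai2, which encodes the inhibitory G protein subunit that P2Y12 and the fractalkine receptor couple to, was steady at 413.4 and 505.1 CPM in WT and 378.5, 417.3 and 403.9 CPM in KIKO, with log2 fold changes of -0.20 ± 0.35 and, without KIKO 2, -0.24 ± 0.25. Tyrobp, encoding the adaptor DAP12 that pairs with the Siglech product, instead followed the members, at 321.7 and 320.8 CPM in WT and 243.7, 520.8 and 189.8 CPM in KIKO.

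Of 22 regulators of microglial identity, 10 were positive and 12 negative, with a median of -0.05, and 0 passed. Maf, a macrophage transcription factor and the most abundant regulator, measured 361.6 and 382.3 CPM in WT and 321.0, 224.1 and 281.1 CPM in KIKO, with each KIKO library below both WT libraries and a log2 fold change of -0.43 ± 0.36 that did not pass (-0.31 ± 0.25 without KIKO 2). Spi1, which encodes PU.1, did not follow the members: it measured 47.81 and 83.43 CPM in WT and 67.82, 44.05 and 69.0 CPM in KIKO, with KIKO 2 lowest. Irf8, another macrophage transcription factor, stayed between 105.5 and 156.1 CPM. Without KIKO 2, 7 of 8 signalling partners and 15 of 22 regulators were negative. Of these only Tgfbr2, a receptor of TGF-beta, passed the first threshold, with a log2 fold change of -1.07 ± 0.39.

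The 12 shared myeloid genes were divided 6 to 6 with a median of 0.00, and 0 passed. Without KIKO 2, 10 of them were negative with a median of -0.42, and Itgam passed as lower at -0.79 ± 0.31. Of 19 disease-associated microglia genes tested out of 22, 6 were positive and 13 negative with a median of -0.11, and 0 passed. Without KIKO 2, 18 of these 19 were negative with a median of -0.43, and Csf1, Fth1 and Lyz2 passed as lower. The negative values without KIKO 2 were therefore shared by homeostatic, general and disease-associated genes of these cells, and were not particular to them. Without KIKO 2, all 10 choroid plexus markers were negative (median -0.74), as were 5 of 7 oligodendrocyte markers (median -0.34). Granule neuron markers were divided 4 to 4, and all 6 Purkinje neuron markers were positive. Of all 10373 genes, 5284 were negative and 3.51% passed as lower. The differences between the lists were not tested.

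The summed markers of some other cells were highest in KIKO 2, as the summed members were, and those of neurons were not. Gene by gene, KIKO 2 was highest for 5 of 7 oligodendrocyte markers (71.4%) and 4 of 10 choroid plexus markers (40.0%). It was highest for 33.9% of all genes tested. The 7 oligodendrocyte markers summed to 5226 and 11930 CPM in WT and 4598, 19020 and 5906 CPM in KIKO, the same order of libraries as the summed members. The 10 choroid plexus markers summed to 13030 and 14150 CPM in WT and 9587, 15740 and 8028 CPM in KIKO. Of this sum, Ttr alone held 13950 CPM in KIKO 2. The 8 granule neuron markers summed to 3053 and 2310 CPM in WT and 2890, 2240 and 2721 CPM in KIKO, lowest in KIKO 2. Transcripts of non-myeloid cells were thus abundant in every library. The choroid plexus and oligodendrocyte sums each exceeded the summed members, at 2513 to 6216 CPM, in every library. The part of these transcripts in the results on the members was not tested.

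Markers of other immune cells were low. The 10 border macrophage markers summed to 265.0 and 345.9 CPM in WT and 286.3, 459.8 and 268.9 CPM in KIKO. The 7 monocyte markers summed to 63.75 and 69.02 CPM in WT and 99.37, 122.1 and 104.5 CPM in KIKO, and 7 neutrophil markers to 48.81 and 66.74 CPM in WT and 149.1, 105.1 and 70.02 CPM in KIKO. Both of the latter sums were higher in each KIKO library than in either WT library, but none of the 3 tested genes of either list was so on its own. Among all genes tested, the groups did not overlap for 16.7%. Vcan and Fn1 made up much of the monocyte sum (57.84 and 35.52 CPM in KIKO 3). In the neutrophil sum, Csf3r was the largest part in KIKO 2 (72.64 CPM) and S100a9 in KIKO 1 (56.78 CPM, beside 48.11 CPM for Csf3r). Without KIKO 2, Vcan (1.256 ± 0.42) and S100a9 (2.245 ± 0.558) passed the first threshold as higher in KIKO, neither at an adjusted p under 0.05. Of all 10373 genes, 305 passed as higher in that setting. Ly6c2, Plac8, Chil3 and Ltf were at 0 in all libraries. Whether cell numbers differed was not tested. T cell markers summed to at most 4.981 CPM, with Cd3e, Cd3d and Cd2 at 0, and of the B cell markers Cd79a and Ms4a1 were at 0.

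**Figure D4:**
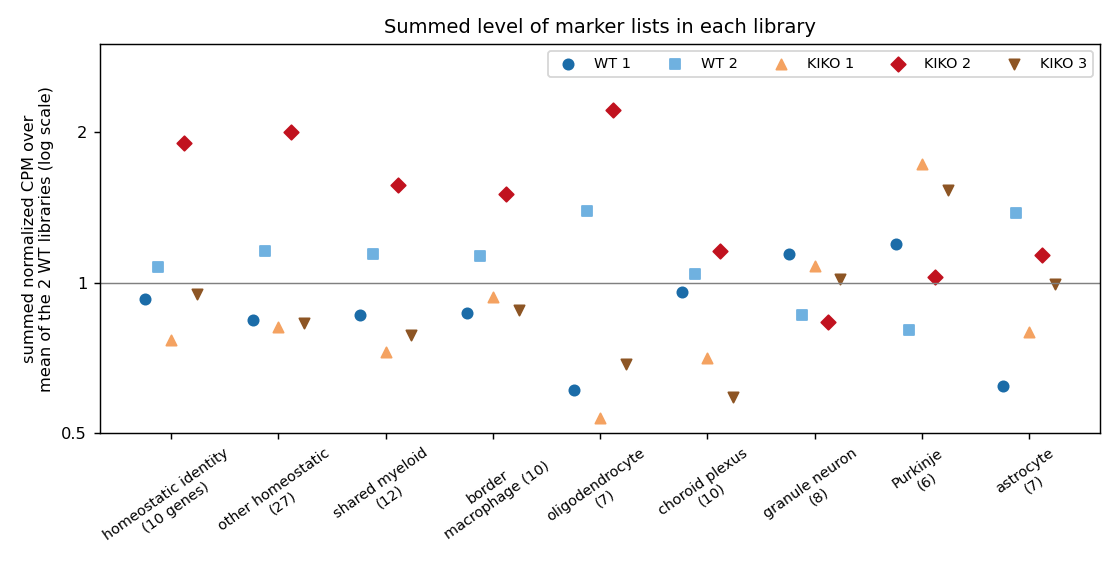
Summed level of marker lists in each library relative to the mean of the 2 WT libraries (log scale); the number of genes listed is in brackets. KIKO 2 is highest for the identity, other homeostatic, shared myeloid, border macrophage, oligodendrocyte and choroid plexus genes. It is lowest of KIKO for granule neuron and Purkinje genes.

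The genes whose pattern over the 5 libraries was most like the members' mean pattern were Ivns1abp, Rnf215, Slc35c1, Phax and Ctsh. The measure was the root mean square difference of log2 CPM after each gene was centred on its mean, and it was 0.0207 to 0.0741 for these 5. It was 0.151 to 0.437 for the members themselves, smallest for Siglech and largest for P2ry12. Ivns1abp, the nearest, measured 204 and 262 CPM in WT and 175, 415 and 182 CPM in KIKO. Among the others, Ctsh encodes a lysosomal protease, and none of these 5 genes was on a list above.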

How the data were processed

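Bulk RNA sequencing of 2 WT and 3 KIKO libraries was analysed. The authors aligned reads to mm10 with HISAT2 and deposited whole-number counts per gene from featureCounts, without normalization; the submitters' processing notes also name DESeq2, and the gene annotation and strand setting are not given in the sources used here. A deposited table of normalized log2 values was not used. Each table held 2 further columns of per-sample values that match no sample label, which were not used. Gene names and positions came from GENCODE M21 (GRCm38, the build called mm10), found for 31011 of 31053 identifiers, and promoters from RefSeq.

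The comparison used edgeR 4.0.16 (R 4.3.3). Low genes were removed with filterByExpr (minimum count 10, minimum total 15), libraries were scaled by TMM, and KIKO was compared with WT by the quasi-likelihood test, two-sided, with Benjamini-Hochberg adjustment over 10889 genes. CPM are counts over the TMM-scaled library size, in units of 1e6, and SE is the standard error of the log2 fold change. Shares and floors cover counting error only. The test was run on simulated counts in which every gene varied alike and no library stood apart. That check therefore does not cover data with a library like KIKO 2. Alternatives were DESeq2 1.42.0, limma 3.58.1 with trend, the likelihood ratio test, RLE factors, library size alone, scaling by the 12 shared myeloid genes, other filters, the replicate number as a block and leaving out each library. Scaling by the shared genes without KIKO 2 was added after seeing the data.

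The members and lists were chosen with earlier results of these data known, so no test was made over a list. Named were all members, from the related lists up to 4 genes each (those past the thresholds by p, then the most abundant, with genes named beyond these, among them Spi1, Irf8, Il34 and Cx3cl1, chosen after their values were seen), and the 5 genes nearest in pattern. Some genes are not reported here. Replicate numbers are shared by 2 pairs of libraries, and the labels do not say that they mark a litter, batch or day.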

Additional observations from a re-analysis of the deposited data

How the results depend on the processing

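The number of members past the thresholds was 0 under each of the 15 alternatives, and their lowest adjusted p was 0.532. Across all genes, 131 passed the first threshold (78 higher, 53 lower), and the number was 383 with all genes of at least 1 count, 211 with the likelihood ratio test, 66 with scaling by the shared myeloid genes (54 higher, 12 lower) and 1190 with that scaling without KIKO 2 (1130 higher, 60 lower). With library size alone 94 were higher and 43 lower, and with DESeq2 96 and 40. Leaving out 1 library gave 56 (WT 1) to 669 (KIKO 2). At an adjusted p under 0.05 there were 0 genes, against 1 with genes of at least 1 count, 14 with shared-gene scaling without KIKO 2, and 0 to 5 with 1 library left out. In fits without a WT library, the lone WT sample was assumed to vary like KIKO. Under the replicate block 271 genes passed (109 higher, 162 lower), 0 of them members, and the members' median was 0.27. Deviations of same-numbered libraries correlated at 0.18 and 0.239, and those of WT 1 and KIKO 3, which share no number, at 0.218. With 2 WT libraries the WT deviations mirror each other, so these values cannot show pairing. The numbers were not taken to pair the samples.

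The members with a negative log2 fold change numbered 2, against 1 with DESeq2, RLE factors or library size alone, 5 with limma and 1 to 10 with 1 library left out. Directions turned as follows, by log2 fold change. Cx3cr1 was 0.049 with library size alone, 0.112 with shared-gene scaling without KIKO 2, and -0.259 to 0.182 with 1 library left out. Under that scaling without KIKO 2, P2ry12 was -0.283, Selplg -0.097 and Olfml3 0.089, and with limma Siglech was -0.014 and Selplg -0.051. With 1 library left out, the ranges were -0.734 to 0.945 for P2ry12, -0.152 to 0.341 for Tmem119, -0.035 to 0.848 for Csf1r, -0.779 to 0.276 for Sall1, -0.363 to 0.263 for Siglech, -0.338 to 0.693 for P2ry13, -0.237 to 0.801 for Gpr34 and -0.525 to 0.432 for Selplg. The lowest of each came without KIKO 2. In CPM without length, 3 genes kept their place in the order of levels. Depth limits Sall1 and Gpr34 most. The cause of these shifts was not tested.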
